A study of Mus musculus with 6 samples.

Results

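The 7 developmental transcription factor genes Shox2, Barx1, Barx2, Gata6, Dbx1, Pou3f3 and Trps1 are described here in embryonic mouse tongues with and without the TGF-beta type II receptor in the neural crest. They were chosen by their measured difference between the genotypes, 4 as higher and 3 as lower in the mutants, so that difference is given as a description without a test. All probe sets annotated to one of these genes alone were taken: 14 probe sets for 7 of the 18193 genes that the arrays read. The samples were 3 mutants, Tgfbr2 fl/fl with Wnt1-Cre, and 3 controls, Tgfbr2 fl/fl without Cre, all C57BL/6J and all at embryonic day 14.5. The control titles say wildtype, although the genotype field gives the floxed alleles. Wnt1-Cre drives recombination in the neural crest and its descendants, so muscle, epithelium, endothelium and blood of the mutant tongue keep an intact receptor gene. The sex of the embryos was not determined by the submitters, and no label says whether arrays came from separate litters. The parts of litter, sex and technique in the spread between arrays cannot be told apart.

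TGF-beta ligands bind the type II receptor, which phosphorylates a type I receptor, which in turn activates Smad proteins that enter the nucleus and change transcription. In the tongue the neural crest forms connective tissue around muscle that comes from mesoderm. Transcription factors of the homeobox, GATA and POU families are expressed in restricted regions of the embryo and give neighbouring tissues different identities. Shox2 is known from the anterior palate, the limb and the cardiac pacemaker, Barx1 from jaw mesenchyme, molar teeth and stomach, and Barx2 from oral and glandular epithelium and muscle progenitors. Gata6 acts in heart, gut and vascular tissue, Dbx1 in neural tube progenitors, Pou3f3 in brain, kidney and upper jaw mesenchyme, and Trps1, an atypical GATA protein, in cartilage, hair follicles and joints.

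Values are log2 expression after RMA, so a difference of 1 is a doubling. A probe set whose mean over the 6 arrays lay under 5.17, the lowest 25% of genes, was treated as dim. The brightest probe set stood for a gene. All 7 genes passed this filter, on 12 of their 14 probe sets. Array medians lay between 5.92 and 5.98. Mutant array 1 correlated less with the other arrays (0.966 to 0.978 over genes) than these did with each other (0.984 to 0.998). Tgfbr2 RNA was 11.54 ± 0.34 in the mutants and 11.73 ± 0.15 in the controls (SD, n = 3 each; limma adjusted p = 0.642), and the labels do not place this probe set inside or outside the deleted part. The tissue label was borne out by Myog, the muscle differentiation factor gene (12.67 in the controls), Krt15, a basal keratin gene (12.52), and Col1a2, a fibrillar collagen gene (14.19). In whole tissue, fewer cells of a type and less RNA per cell cannot be told apart.

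Upstream sequence from the RefSeq promoter table of build GRCm38.p6 is given for 4 of the 7 genes. Of these, 2 were higher in the mutants (Shox2 and Barx1) and 2 were lower (Dbx1 and Pou3f3). They are shown so that the windows of these higher and lower genes can be compared. Barx2, Gata6 and Trps1 were not included, so the comparison covers only part of the higher and of the lower genes. The 250 bases before each start site are given 5′ to 3′ on the gene's strand: Shox2 at chr3:66981772-66982021 on the minus strand, Barx1 at chr13:48662786-48663035 on the plus strand, Dbx1 at chr7:49636836-49637085 on the minus strand and Pou3f3 at chr1:42695518-42695767 on the plus strand. Capitals mark CCAAT, the box bound by NF-Y, and TATAAA, the TATA box.
Shox2: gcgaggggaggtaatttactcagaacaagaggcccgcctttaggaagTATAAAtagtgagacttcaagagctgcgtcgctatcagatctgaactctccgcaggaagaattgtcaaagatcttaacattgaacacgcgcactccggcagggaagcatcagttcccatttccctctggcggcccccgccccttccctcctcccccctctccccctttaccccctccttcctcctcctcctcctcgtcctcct
Barx1: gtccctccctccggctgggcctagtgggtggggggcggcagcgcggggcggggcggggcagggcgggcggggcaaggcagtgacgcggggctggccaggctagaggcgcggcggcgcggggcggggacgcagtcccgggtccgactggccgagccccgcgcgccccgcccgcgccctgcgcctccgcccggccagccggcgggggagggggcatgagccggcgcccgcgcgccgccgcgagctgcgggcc
Dbx1: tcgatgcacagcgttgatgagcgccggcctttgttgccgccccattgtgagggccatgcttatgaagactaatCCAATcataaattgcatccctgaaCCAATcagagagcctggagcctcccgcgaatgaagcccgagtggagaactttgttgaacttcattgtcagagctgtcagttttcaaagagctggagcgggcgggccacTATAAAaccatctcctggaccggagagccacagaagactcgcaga
Pou3f3: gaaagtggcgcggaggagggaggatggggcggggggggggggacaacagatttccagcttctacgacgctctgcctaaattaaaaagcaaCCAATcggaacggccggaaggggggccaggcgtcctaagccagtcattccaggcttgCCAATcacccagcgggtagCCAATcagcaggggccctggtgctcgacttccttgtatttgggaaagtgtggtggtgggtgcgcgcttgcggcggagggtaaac

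The CCAAT box occurred 3 times in the Pou3f3 window, starting 160, 103 and 84 bases before the start site, and 2 times in the Dbx1 window, 177 and 153 bases before it. It did not occur in the Shox2 and Barx1 windows. Both strands were searched, and 33.8% of the 32851 windows in the table held at least 1 copy, 10.1% at least 2 and 2.79% at least 3. TATAAA occurred once in Dbx1, 45 bases before the start, and once in Shox2, 203 bases before it, and in 12.4% of all windows. GGGCGG, the GC box bound by Sp1-type factors, occurred 8 times in Barx1, where copies can share bases, 2 times in Dbx1 and once each in Pou3f3 and Shox2 (32.7% of all windows held at least 1). CAGAC, the core of a Smad binding element, was in none of these 4 windows and in 42.2% of all. TAAT, the core read by many homeodomains, occurred once in each of Dbx1, Pou3f3 and Shox2 and in 54.9% of all windows. The Barx1 window was 85.6% G and C, against 55.6% for Shox2, 52.8% for Dbx1, 60.8% for Pou3f3 and a median of 52.4%. These matches describe letters in a short window and not sites in use.

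Among the genes that were higher in the mutants, Shox2 stood furthest from its control level. Its brightest probe set read 9.32, 9.11 and 9.21 on mutant arrays 1, 2 and 3 and 7.72, 7.36 and 7.56 on control arrays 1, 2 and 3. The mutants lay within 0.209 of each other and the controls within 0.362, and the lowest mutant was 1.39 above the highest control. The means were 9.21 ± 0.10 and 7.55 ± 0.18 (SD, n = 3 each), a log2 difference of 1.66 (standard error 0.12), or 3.17-fold. The other Shox2 probe set read 7.17, 6.88 and 7.07 in the mutants and 6.18, 5.64 and 6.03 in the controls. Its difference was smaller, 1.09 (standard error 0.15), and its groups did not overlap either.

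Gata6, which encodes a zinc finger factor of the GATA family, read 7.04, 7.04 and 7.65 in the mutants and 6.05, 6.02 and 5.98 in the controls. Mutant array 3 was the highest, and the controls were closely spaced (SD 0.032, against 0.35 in the mutants). The log2 difference was 1.23 (standard error 0.17), or 2.34-fold. A dimmer probe set of Gata6 read 5.71 to 5.74 in the mutants and 5.04 to 5.47 in the controls, a difference of 0.50 (standard error 0.12). The third lay under the filter value, with overlapping groups at 3.78 to 3.89 and 3.86 to 4.03. The size of the Gata6 difference therefore depended on the probe set, and the mean of all 3 gave 0.55.

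The Bar-type homeobox genes Barx1 and Barx2 were both higher, each on a single probe set, and their arrays were ordered differently. Barx1 read 8.82, 8.52 and 8.31 in mutants 1, 2 and 3 and 8.07, 7.73 and 7.72 in controls 1, 2 and 3. Its lowest mutant lay only 0.247 above its highest control, the narrowest gap of the 7 genes and smaller than the mutant range of 0.51. Barx1 thus differed by 0.71 on the log2 scale (standard error 0.16), or 1.64-fold. Barx2 read 8.82, 8.85 and 9.20 in the mutants and 8.18, 8.16 and 8.27 in the controls. Here mutant array 3 was highest and the gap between the groups was 0.547. The log2 difference of Barx2 was 0.75 (standard error 0.12), or 1.68-fold.

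**Figure D1:**
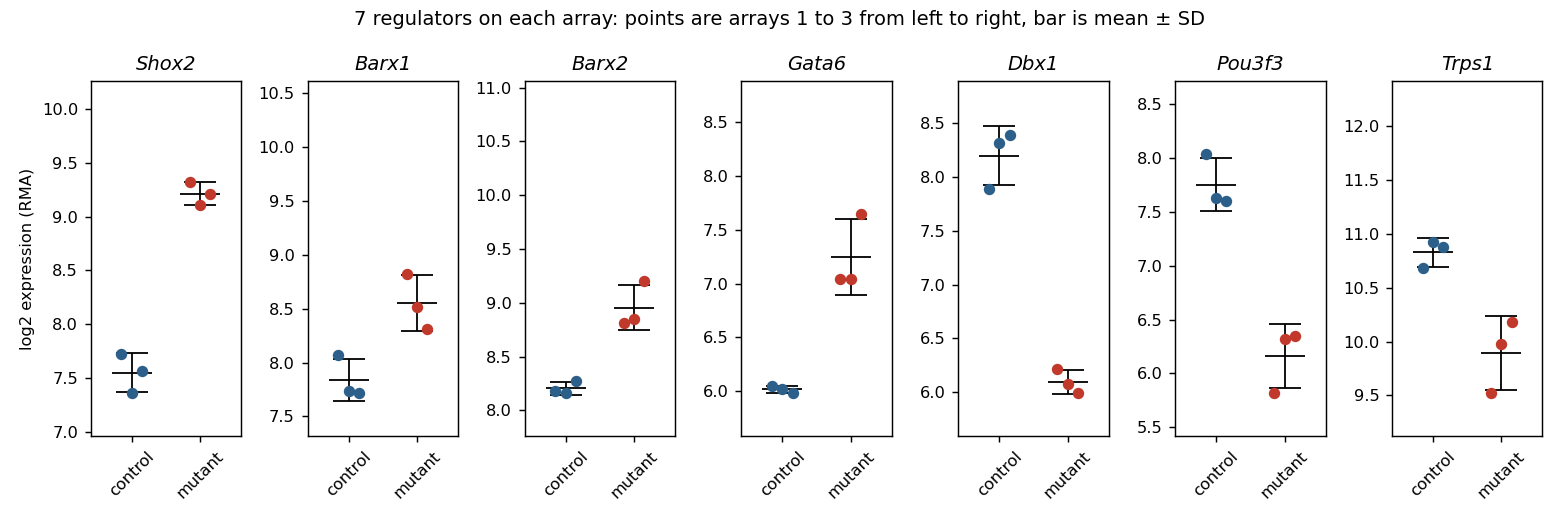
log2 expression (vertical axis, every panel with the same span and its own start) of the 7 regulators on the brightest probe set, with control arrays in blue, mutant arrays in red, and bars for the mean ± SD of 3 arrays. In each panel the groups do not overlap; the gap is widest for Dbx1 (1.67) and narrowest for Barx1 (0.247).

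Of the genes that were lower in the mutants, Dbx1 differed most. It was read by 1 probe set, at 6.21, 6.08 and 5.99 in the mutants and 7.88, 8.32 and 8.39 in the controls. The mutants were within 0.219 of each other, and the highest of them lay 1.67 under the lowest control. The means were 6.09 ± 0.11 and 8.20 ± 0.27 (SD, n = 3 each), a log2 difference of -2.10 (standard error 0.15), or 4.29-fold.

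Pou3f3, a class III POU factor also known as Brn1, read 5.82, 6.32 and 6.35 in the mutants and 8.04, 7.63 and 7.60 in the controls. Mutant array 1 was the lowest and control array 1 the highest of all, and the groups were 1.25 apart. Pou3f3 thus differed by -1.59 on the log2 scale (standard error 0.18), or 3.02-fold. A second, dim Pou3f3 probe set had overlapping groups, 4.73 to 5.11 in the mutants and 4.88 to 5.41 in the controls, with a difference of -0.11. A further probe set that the annotation gives to Pou3f3 together with another transcript was left out, since it names 2 genes.

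Trps1, a transcriptional repressor gene, was read by 4 probe sets, of which 3 were bright and separated the groups. The brightest read 9.52, 9.97 and 10.19 in the mutants and 10.68, 10.93 and 10.88 in the controls. The log2 difference was -0.94 (standard error 0.17), or 1.91-fold, and the next bright probe sets gave -0.79 and -0.72. On all 3, mutant array 1 was the lowest (9.52, 9.38 and 8.97) and the mutant SD was wider than that of the controls. The remaining probe set, at 6.47 to 7.18 in the mutants and 5.92 to 7.37 in the controls, had overlapping groups and a difference of 0.020 with a standard error of 0.36.

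**Figure D2:**
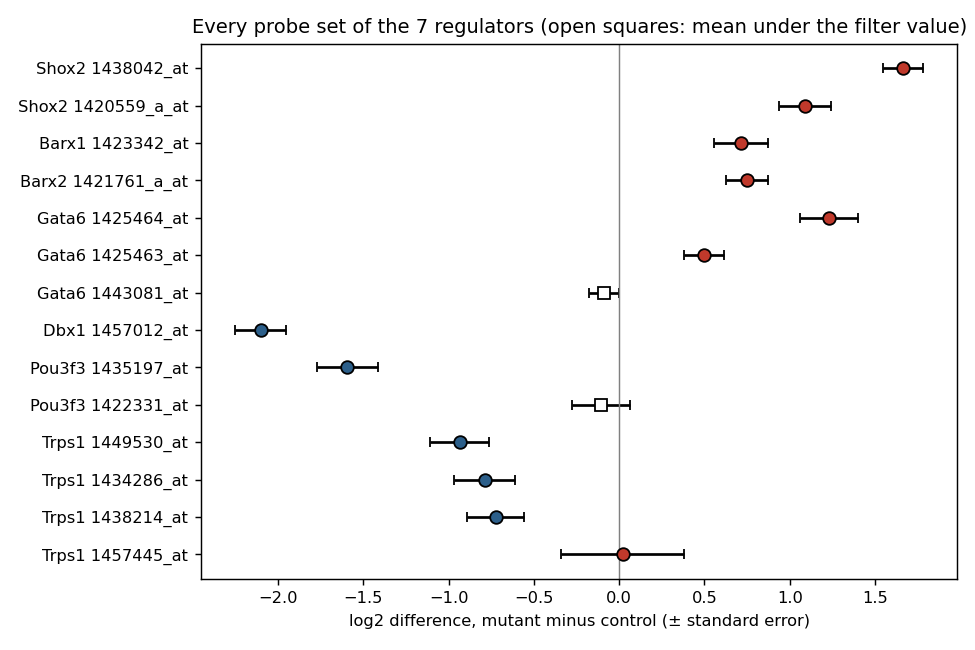
log2 difference, mutant minus control (horizontal axis), with its standard error, for each of the 14 probe sets of the 7 regulators. Filled red and blue points are positive and negative differences of probe sets above the filter value, and open squares are the 2 probe sets under it. Probe sets of one gene differ in size, as for Gata6 (1.23, 0.50 and -0.09).

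Mutant and control values did not overlap for any of the 7 genes on the brightest probe set, 4 with the mutants higher and 3 with the mutants lower. Over all 13645 tested genes, 13.6% had all mutants higher and 11.5% had all mutants lower. Since the genotype difference chose these genes, nothing is read from that comparison. Of the 14 probe sets 11 separated the groups. With each array left out in turn, the log2 difference stayed between 1.57 and 1.75 for Shox2, 1.03 and 1.33 for Gata6, 0.58 and 0.83 for Barx1, 0.63 and 0.82 for Barx2, -2.26 and -2.01 for Dbx1, -1.69 and -1.42 for Pou3f3, and -1.08 and -0.75 for Trps1.

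Relatives of these genes did not pass the test. Of 26 listed genes of the GATA, class III POU, Dbx, Bar-type and paired-type homeobox families, 21 were measured and 14 passed the filter. None of the 14 was called higher or lower by limma at an adjusted p under 0.05, where 1.32% of all tested genes were called higher and 0.821% lower, and 1 had an unadjusted p under 0.05 (16.9% of all tested genes). With the replicate number as a block, 490 instead of 292 genes were called over the whole table, and still none of the relatives. Their median log2 difference was 0.016, the same as that of all tested genes (0.016). The gene with the unadjusted p under 0.05 was Gata3, a GATA factor of epithelia and T cells, at 4.81, 5.35 and 6.00 in mutants 1, 2 and 3 and 6.29, 6.13 and 6.11 in the controls. Its mutant values were all lower but widely spread, with a log2 difference of -0.79 (standard error 0.27, limma adjusted p = 0.201), and it passed only when mutant array 3 was left out (-1.10, adjusted p = 0.0450).

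The other GATA relatives stayed within 0.1 of their control means. Gata1, of red cells, differed by -0.02 (standard error 0.084) and Gata2, of blood progenitors and endothelium, by -0.05 (standard error 0.082). Gata4 and Gata5, which overlap with Gata6 in heart and gut, lay under the filter at mutant means of 5.04 and 4.64 and control means of 5.005 and 4.70. Among the POU relatives of Pou3f3, Pou3f1 differed by 0.00067 (standard error 0.11), Pou3f4 by -0.10 (standard error 0.098) and Pou3f2 by 0.22 (standard error 0.10, limma adjusted p = 0.346). The last read 6.86, 6.82 and 6.56 in the mutants and 6.51, 6.52 and 6.56 in the controls, against the lower values of Pou3f3. Dbx2, the relative of Dbx1, was dim, at 3.303 in the mutants and 3.19 in the controls. Phox2a, a paired-type factor of cranial and autonomic neurons, differed by 0.43 (limma adjusted p = 0.398) and passed without mutant array 1 (0.69, adjusted p = 0.0294).

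Among genes known as partners, upstream signals or targets of the regulators, Nkx2-5 and Tbx18 passed the test and the others did not. The list was drawn up with earlier results of these data known, so its calls are not independent support for a link. Of 40 listed genes 35 were measured and 32 tested, 1 was called higher and 1 lower by limma (1.32% and 0.821% of all tested genes), 4 had an unadjusted p under 0.05, and 15 had a positive and 17 a negative difference, with a median of -0.04. Nkx2-5, a homeobox gene that Shox2 restrains in the cardiac pacemaker, fell. It read 6.92, 7.46 and 7.32 in the mutants and 8.19, 8.44 and 8.35 in the controls. The log2 difference was -1.09 (standard error 0.15, limma adjusted p = 0.0188), or 2.13-fold. Every mutant was below every control. The call was lost without control array 2 or control array 3 (adjusted p = 0.113 for both), while the difference stayed at -1.04 and -1.08.

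Tbx18, a T-box gene of pacemaker and other mesenchyme, rose. It read 8.14, 8.66 and 8.60 in the mutants and 7.63, 7.36 and 7.06 in the controls. The log2 difference was 1.11 (standard error 0.19, limma adjusted p = 0.0318), or 2.16-fold. A dimmer probe set of Tbx18 gave 0.92 with groups that did not overlap. The Tbx18 call was lost without mutant array 2 (adjusted p = 0.111), mutant array 3 (0.0708), control array 1 (0.0505), control array 2 (0.152) or control array 3 (0.147), and with sex as a covariate (0.0820), with differences from 0.97 to 1.25. Of the other genes linked to Shox2, Isl1, a pacemaker LIM-homeobox gene, differed by 0.20 (limma adjusted p = 0.535), Tbx5 by -0.07 (0.721) and Bmp4, a BMP ligand gene downstream of Shox2 in several tissues, by 0.38 (0.197).

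The remaining genes of this list did not pass either. The list was made for all the regulators jointly, so its called genes are not assigned to a single regulator. Zfpm1 and Zfpm2, which encode the FOG cofactors of GATA proteins, differed by 0.18 (limma adjusted p = 0.478) and 0.10 (0.867). Sfrp1 and Sfrp2, which encode Wnt antagonists induced by Barx1 in the stomach, differed by 0.02 (limma adjusted p = 0.957) and -0.50 (0.0963). Sfrp2 read 11.08, 10.86 and 11.21 in the mutants and 11.68, 11.54 and 11.43 in the controls, the opposite side from Barx1. Hand2, a bHLH gene of the lower jaw that acts upstream of Barx1, differed by -0.03 (limma adjusted p = 0.949). Gli3, Pth1r and Sox9, genes of the cartilage programme in which Trps1 acts, differed by -0.40, 0.04 and -0.12 (limma adjusted p = 0.435, 0.936 and 0.663). Pax7 and Myod1, muscle genes linked to Barx2, differed by -0.47 and -0.42 (limma adjusted p = 0.428 and 0.390). Pax7 read 7.64, 8.70 and 8.70 in mutants 1, 2 and 3 and 8.81 to 8.83 in the controls. Gli3 was likewise lowest on mutant array 1 (9.51, against 10.30 and 10.47 on mutant arrays 2 and 3).

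**Figure D3:**
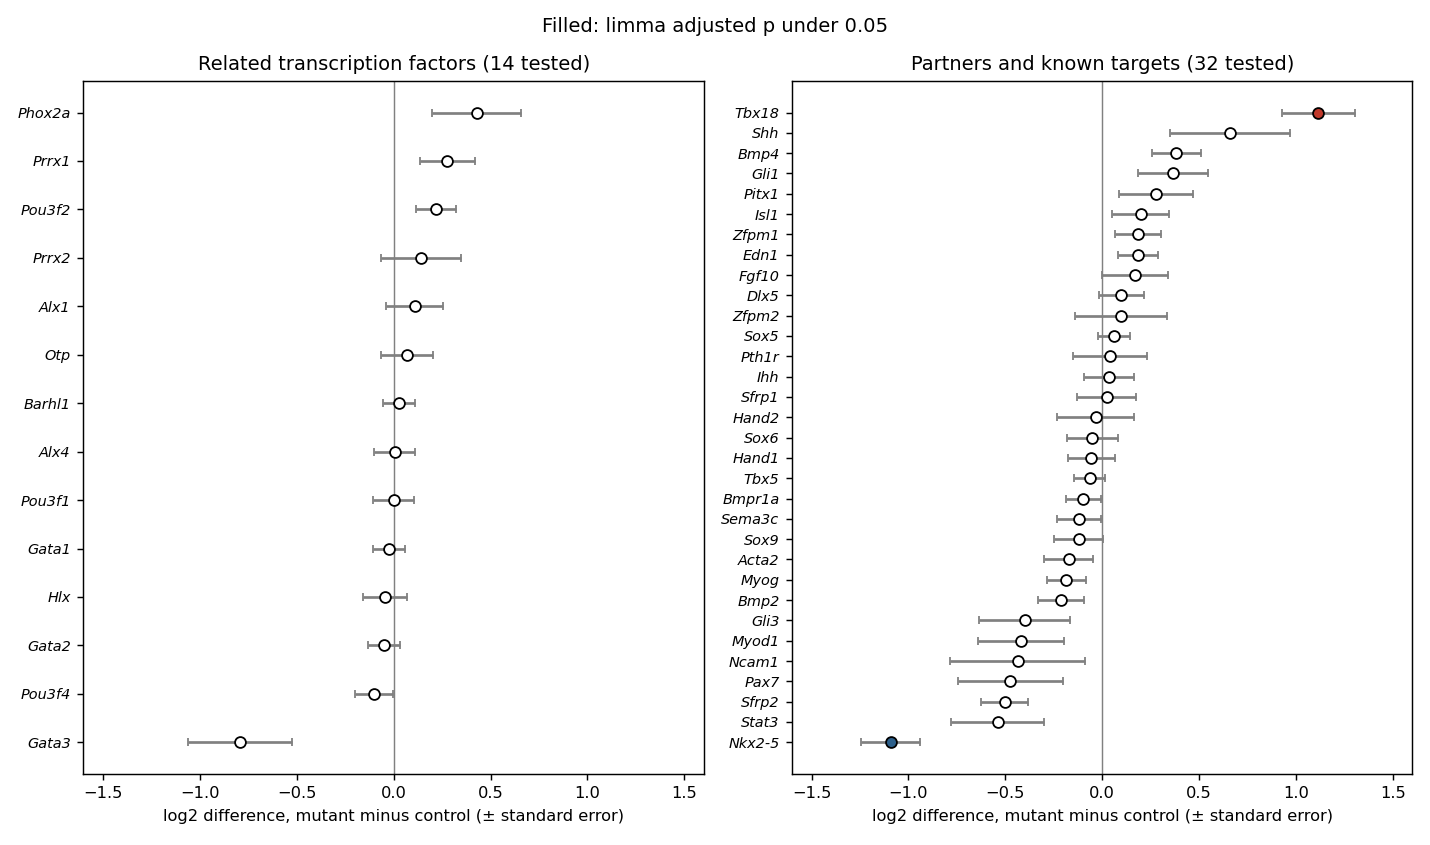
log2 difference, mutant minus control (horizontal axis), with standard errors, for the 14 tested relatives (left) and the 32 tested partners and targets (right). Filled points passed limma's adjusted p of 0.05: Tbx18 in red (1.11) and Nkx2-5 in blue (-1.09); all others are open.

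The genes that lie beside the regulators on the chromosome were compared next, as the nearest tested gene on each side in the RefSeq gene order. This comparison was added after values had been seen. Of the 14 flanking genes 1 was called, lower, by limma, as were 0.821% of all tested genes, and 2 had an unadjusted p under 0.05. It was Pantr1, a noncoding RNA gene named for its place beside Pou3f3. Pantr1 read 6.62, 6.75 and 6.52 in the mutants and 7.45, 7.47 and 7.33 in the controls. The log2 difference was -0.78 (standard error 0.098, limma adjusted p = 0.0133), or 1.72-fold. Pantr1 and Pou3f3 thus both read lower on all 3 mutant arrays. The call was lost without control array 1 (adjusted p = 0.0546), control array 2 (0.102) or control array 3 (0.0674), and Pantr1 was not tested when the lower 50% of genes were left out. On the other side of Pou3f3, Mrps9, a mitochondrial ribosomal protein gene, differed by 0.08 (limma adjusted p = 0.734).

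The remaining 12 flanking genes did not pass. Beside Shox2, Ptx3, a pentraxin gene, differed by 0.41 (limma adjusted p = 0.325) and Rsrc1, a splicing factor gene, by 0.09 (0.624). Beside Dbx1, Nav2, a gene of axon growth, had all mutants lower, as had 11.5% of all tested genes, with a difference of -0.37 (limma adjusted p = 0.288), and Prmt3, an arginine methyltransferase gene, differed by 0.04 (0.855). Beside Trps1, Csmd3 and Eif3h differed by 0.31 each (limma adjusted p = 0.330 and 0.484), on the opposite side from Trps1. Csmd3 had all mutants higher, as had 13.6% of all tested genes, whereas the groups of Eif3h overlapped. Eif3h read 13.65, 12.89 and 12.93 in mutants 1, 2 and 3 and 12.79 to 12.96 in the controls, so its difference came from mutant array 1. The flanks of Barx1, Barx2 and Gata6 lay between -0.21 (Mib1, a Notch ligand ubiquitin ligase gene beside Gata6) and 0.07 (Ptpdc1 beside Barx1).

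**Figure D4:**
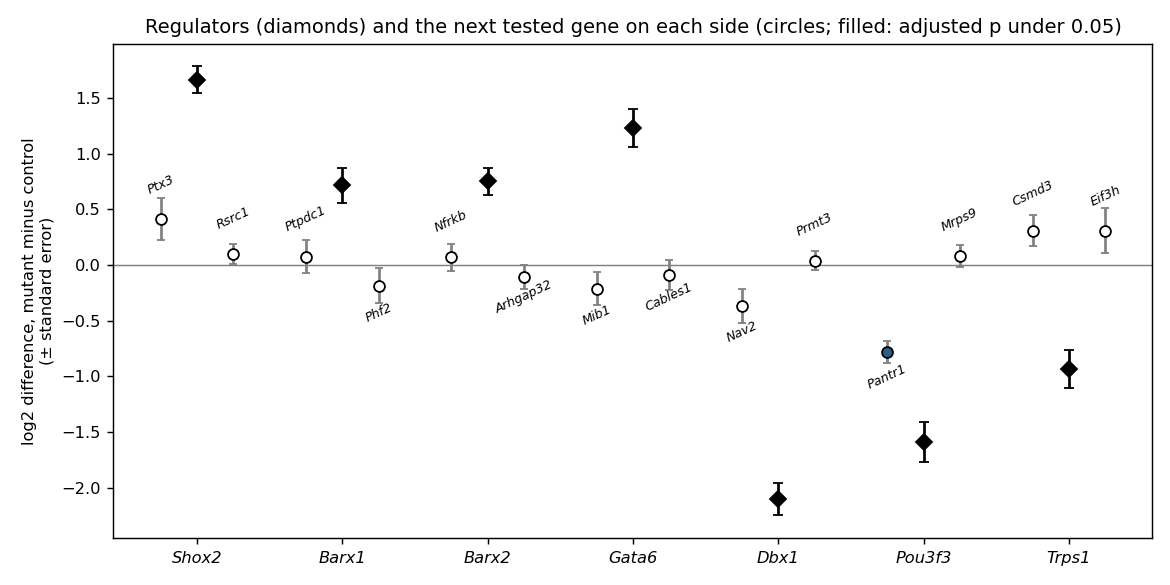
log2 difference, mutant minus control (vertical axis), with standard errors, for each regulator (black diamonds) and the next tested gene on each side of it (circles, with names). The filled circle, Pantr1 (-0.78), is the flanking gene with an adjusted p under 0.05; the horizontal axis gives gene order and not distance.

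For each regulator the genes with the most similar profile were found, by the root mean square distance over the 6 arrays between values relative to the control mean. The genotype difference enters this measure, so the lists below describe profiles and carry no test. Closest to Shox2 were Cd83, a surface protein gene of dendritic cells (distance 0.196), Fam210b (0.198) and Fst, which encodes the activin and myostatin antagonist follistatin (0.226). Closest to Barx1 were Cryz, a quinone reductase gene (0.0375), Trim21, an intracellular antibody receptor gene (0.0556), and Cbarp (0.0628). Like Barx1, Cryz read highest on mutant array 1 and lowest among the mutants on array 3 (10.72, 10.43 and 10.17).

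Closest to Barx2 were Ptger3, a prostaglandin E receptor gene (0.0575), Dhh, the desert hedgehog gene of Schwann cells (0.0664), and Mrgprf (0.0781), which, like Barx2, read highest on mutant array 3. Closest to Gata6 were Vtn, the vitronectin gene (0.109), Mpeg1, a perforin-like gene of macrophages (0.159), and Itgb8, an integrin gene whose product activates latent TGF-beta (0.166). Closest to Dbx1 were Angptl1 (0.192), Fgf5 (0.195) and Aspn (0.271), a secreted angiopoietin-like factor gene, an FGF gene and the asporin gene. Closest to Pou3f3 were Prss35 (0.180), Cys1 (0.192) and Frmd3 (0.206). Closest to Trps1 were Itga1, a collagen receptor subunit gene (0.0796), Bmp5, a BMP ligand gene (0.0993), and Sytl2, a vesicle transport gene (0.105). All 3 shared with Trps1 the lowest value on mutant array 1, as in Bmp5 (7.504, 8.10 and 8.16 in the mutants).

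Markers of other cell types of the tongue and its surroundings differed between the genotypes in several lists, and their part in the values of the regulators was not tested. These lists, too, were drawn up with earlier results of these data known. All 8 epithelial markers were higher in mean in the mutants, with a median log2 difference of 0.59. Their mean level was 10.93 to 11.67 in the mutants and 10.57 to 10.75 in the controls. The highest epithelial median was on mutant array 1, where Shox2 and Barx1 also read highest and Barx2 lowest among the mutants. None passed limma, and 6 had an unadjusted p under 0.05, as had 16.9% of all tested genes. One was Krt14, a basal keratin gene (0.94, limma adjusted p = 0.0605). Of 7 neuronal markers 6 were positive, with a median of 0.72, and 1 was called, Stmn2, a microtubule regulator gene of growing axons (1.07, limma adjusted p = 0.0272). The mean neuronal level was 7.36 to 7.95 in the mutants and 6.93 to 7.29 in the controls, whereas Dbx1 and Pou3f3, both known from the nervous system, were lower. Of 5 tested Schwann cell markers 4 were positive (median 0.37, none called by limma, 4 at an unadjusted p under 0.05), with a mean level of 8.20 to 8.68 in the mutants and 7.999 to 8.08 in the controls.

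Muscle and endothelial markers lay on the other side. The share of tested genes with an unadjusted limma p under 0.05 was 37.5% for muscle, 16.7% for endothelium and 12.5% for mesenchyme. Over all tested genes it was 16.9%. All 8 muscle markers were negative, with a median of -0.68, none called by limma and 3 at an unadjusted p under 0.05, and their mean level was 10.82 to 11.67 in the mutants and 11.53 to 12.07 in the controls. All 6 endothelial markers were negative (median -0.44, none called, 1 at an unadjusted p under 0.05), with a mean level of 6.59 to 7.36 in the mutants and 7.501 to 7.59 in the controls. Of 8 mesenchyme markers 7 were negative (median -0.21, none called, 1 at an unadjusted p under 0.05), with a mean level of 10.41 to 11.18 in the mutants and 11.06 to 11.18 in the controls. On mutant array 1 the medians of the muscle, endothelial and mesenchyme lists were -1.02, -1.004 and -0.72, against -0.39, -0.14 and 0.014 on mutant array 2 and -0.25, -0.15 and -0.05 on mutant array 3. Mutant array 1 was also where Pou3f3 and Trps1 read lowest, whereas Dbx1 read highest among the mutants there.

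Among the other lists, the macrophage, cartilage and bone markers gave 1 call each. Over all tested genes, limma called 1.32% higher and 0.821% lower. Macrophage markers had a median of 0.21 with 1 of 6 called higher, C1qb, a complement gene (0.87, limma adjusted p = 0.0482). Cartilage markers had a median of -0.08 with 1 of 5 called higher, Col9a1, a cartilage collagen gene (0.87, limma adjusted p = 0.0283), while Col2a1, the main cartilage collagen gene, differed by -0.52 (0.340). Bone markers had a median of 0.018, with 1 of 3 called lower, Dmp1, a mineralised matrix gene (-1.32, limma adjusted p = 0.0354). Sp7, the osteoblast transcription factor gene, had all mutants higher (0.30, limma adjusted p = 0.153). Smooth muscle markers (median -0.05, 4 tested) and red cell markers (median -0.11, 4 tested) had no call by limma and 1 gene each at an unadjusted p under 0.05. The macrophage and bone lists had 2 such genes each, the neuronal list 4 and the cartilage list 1. Of all tested genes, 16.9% were at such a p. Of 6 salivary gland markers 5 lay under the filter value, and the other, Sox10, also marks Schwann cells (0.34, limma adjusted p = 0.224).

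**Figure D5:**
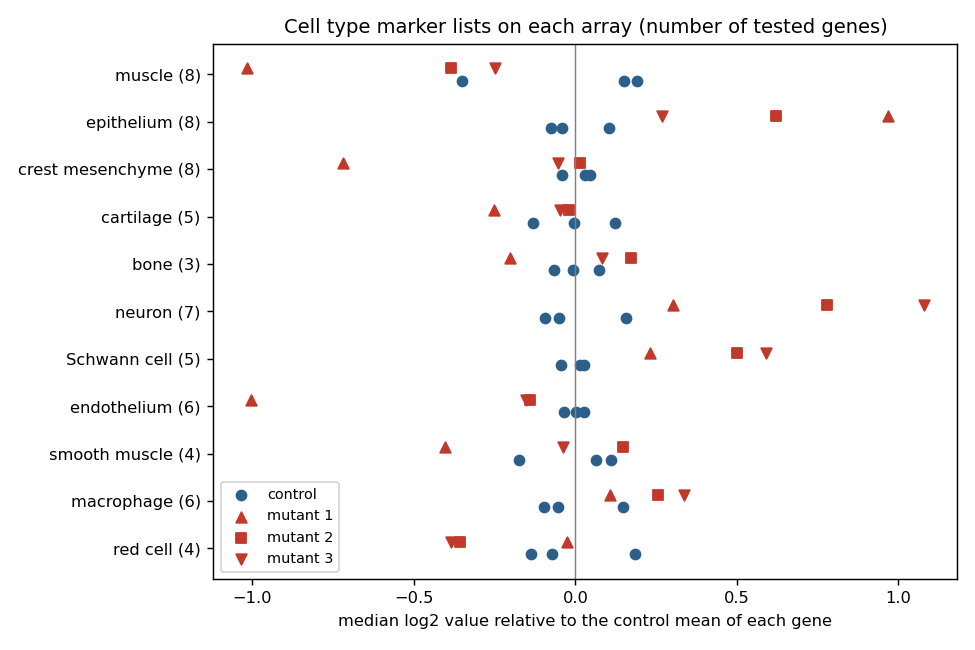
Median log2 value of each marker list on each array (horizontal axis), relative to each gene's control mean. The salivary gland list, with 1 tested gene, is not drawn. Control arrays are blue circles, and mutant arrays 1, 2 and 3 are red triangles, squares and inverted triangles. The epithelial, neuronal and Schwann cell medians of the mutants lie above those of the controls. Mutant array 1 lies apart for muscle (-1.02), endothelium (-1.004) and mesenchyme (-0.72).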

How the data were processed

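Total RNA of 6 tongues was labelled as biotin cRNA and hybridised to Affymetrix arrays, 1 per sample, per the labels' protocols. The authors deposited log2 values made with RMA, according to the submitters' processing notes (version not given). RMA corrects background, quantile-normalizes the arrays and summarises each probe set, which compresses dim differences and would hide a shift common to most of the genes. The number of arrays limits the precision.

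Of 45101 probe sets, 34945 have a single gene symbol in the platform annotation (932 have several, 9160 none listed, 64 are controls). A gene was represented by its brightest probe set, and the lowest 25% of genes were left out, leaving 13645. The genotypes were tested in R 4.3.3 with limma 3.58.1 (lmFit, eBayes, 2-sided, Benjamini-Hochberg over all tested genes, threshold 0.05), tested on simulated data. Standard errors of secondary probe sets come from a fit over all probe sets with a single gene. The main fit had no paired term. The 7 regulators and the gene lists were chosen with earlier results of these data known. The genes named were all probe sets of the regulators, list genes that passed (up to 4 by p, or the first 2 where none passed), the GATA and POU relatives, the 3 nearest profiles per regulator (clone-type names left out), moving markers, and Tgfbr2. Other names, the flanking genes among them, were chosen after their values were seen. The lists hold relatives, partners and targets, and markers of 12 cell types.

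The title numbers run from 1 to 3 in both groups. Same-numbered arrays deviated together (r = 0.309, 0.105 and 0.206 over genes, each over 0.1). By this rule alone the numbers were taken as pairs, in the alternative fit with the replicate block only. Mutant 2 with control 3 (0.196) and mutant 3 with control 2 (0.147) also lay over 0.1. The rule therefore does not single out the same-numbered pairs, and the pairing is weak. Alternatives tried were other filters, the mean of probe sets, other scalings, trend and robust fitting, array weights, the replicate block, sex as a covariate (from Xist), and each array left out. The sex covariate split the arrays at the middle of the Xist range, which divides them whatever their sexes. Figures were drawn with matplotlib 3.10.9.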

Additional observations from a re-analysis of the deposited data

How the results depend on the processing

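For the regulators, leaving out 1 array cannot turn the direction, since their groups do not overlap, and the filters, the variance model and the replicate block leave the difference as it is. Dbx1, Pou3f3 and Gata6 lay under the 50% filter and have no value there. Among the 81 values that an alternative could move, 9 moved by more than the SD between replicates, all through the choice of probe set. Averaging all probe sets gave log2 differences of 1.38 for Shox2, 0.55 for Gata6, -0.85 for Pou3f3 and -0.61 for Trps1. Single secondary probe sets gave 1.09 for Shox2, 0.50 and, reversed, -0.087 for Gata6, -0.11 for Pou3f3 and, reversed, 0.020 for Trps1. The cause was not tested. The reversed Gata6 probe set and that of Pou3f3 lie under the filter value, and those of Shox2 and Trps1 and the other of Gata6 lie above it.

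Over all tested genes, limma called 292 (180 higher, 112 lower), and this count was 490 with the replicate block (283 higher, 207 lower), 1034 with array quality weights, 151 when the dimmer 50% of genes were dropped, 135 with sex as a covariate and 16 to 670 with 1 array left out (without mutant arrays 1, 2 and 3 it was 670, 88 and 242, and without control arrays 1, 2 and 3 it was 142, 16 and 19). The replicate block changed no call among the relatives, partners or flanking genes. Of the relatives 0 were called, 1 with array weights (Phox2a) and 0 to 1 with 1 array left out. Of the partners and targets 2 were called, 4 with array weights (also Gli1 and Sfrp2), 1 with the sex covariate and 0 to 3 with 1 array left out. Of the flanking genes 1 was called, 0 with the dimmer 50% dropped, where fewer genes were tested, and 0 to 1 with 1 array left out. With 3 arrays per group the precision is limited, and the dim probe sets lie near background.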
